A study of Homo sapiens with 36 samples.

Results

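Aminoacyl-tRNA synthetases are the enzymes that load each transfer RNA with its amino acid. The set described here was a list of 36 gene symbols, 20 encoding cytosolic enzymes and 16 encoding mitochondrial ones, and it does not cover every amino acid. All 36 were found among the 61544 genes of the count table, and all 36 passed the filter on low counts that left 20767 genes for testing. The rule for membership uses no measured value. GARS1 and KARS1, counted here with the cytosolic enzymes, are each known to supply the mitochondrial enzyme as well.

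The samples were 36 polyA RNA libraries made from MIAPACA-2 cells. This is an established line from a human pancreatic cancer, here fitted with Cas9 under doxycycline control and with 1 of 3 guide RNAs. The guides were NTC, a non-targeting control, PELO and HBS1L. Each of these lines was grown without doxycycline or with 2 µg/mL doxycycline for 48 h or 96 h, with 3 libraries for each of the 12 combinations of guide, doxycycline and time. The question put by the design is how such cells, in which the SKI complex is unstable, respond when PELO or HBS1L is lost. Both proteins are known to act together in recognising and rescuing stalled ribosomes, and the SKI complex is a helicase assembly that feeds messenger RNA to the exosome for decay. All 12 groups share 1 parental cell line: transcripts of FOCAD, known to stabilise the SKI complex, reached at most 0.0213 CPM (counts scaled to a common library size) in any library. The labels do not say whether a guide stands for 1 clone or a pool, and a mutation made by Cas9 leaves some mRNA in place, so RNA levels show only part of the loss. Times were compared between libraries numbered in separate blocks, so that time and any difference between those blocks cannot be told apart. Nothing in the labels says that the 3 libraries of a group came from separate cultures, so the p-values below measure the spread between these libraries, which may be technical.

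In the cytosol, several synthetases are held with scaffold proteins in the multisynthetase complex, while others work alone. The mitochondrial enzymes are encoded in the nucleus, imported, and charge the transfer RNAs that the mitochondrial genome encodes. Genes for many cytosolic synthetases are known targets of ATF4, a transcription factor made when amino acids run short or when translation initiation is restrained through eIF2 alpha; ATF4 binds, with C/EBP partners, a DNA element whose core reads TGATGNAA.

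The letters TGATGNAA were searched on both strands of RefSeq promoter windows (build GRCh38.p14), which run from 250 bases before to 50 bases after an annotated start. Windows were matched by symbol for 30 of the 36 genes, 16 cytosolic and 14 mitochondrial, and not for LARS1, TARS3, VARS1, YARS1, AARS2 and VARS2. The 8 stretches below are shown because they are the matches in this gene set. The capitals mark the matched letters, which are read in reverse complement where the match lies on the other strand.
AARS1, chr16:70289675-70289704, minus strand: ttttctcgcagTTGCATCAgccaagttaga
CARS1, chr11:3057407-3057436, minus strand: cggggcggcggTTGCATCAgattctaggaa
GARS1, chr7:30594834-30594863, plus strand: ttacgcggcgaTTTCATCAtgctccgagcc
IARS1, chr9:92293692-92293721, minus strand: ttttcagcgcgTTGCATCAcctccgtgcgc
MARS1, chr12:57488053-57488082, plus strand: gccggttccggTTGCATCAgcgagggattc
NARS1, chr18:57621804-57621833, minus strand: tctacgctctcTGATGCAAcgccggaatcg
TARS1, chr5:33440956-33440985, plus strand: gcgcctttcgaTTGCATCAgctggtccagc
YARS2, chr12:32756076-32756105, minus strand: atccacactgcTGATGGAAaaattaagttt
A gene can have several windows, and the 30 genes had 39. The match was present in a window of 7 of 16 cytosolic genes and of 1 of 14 mitochondrial genes, against 4.46% of the 27305 genes with a window; over single windows the share was 3.62% of 35116. In AARS1, CARS1, IARS1, MARS1, NARS1 and TARS1 the matched letters were the same 8, TTGCATCA on 1 strand or the other. GARS1 held TTTCATCA. YARS2, the mitochondrial tyrosine enzyme, held TGATGGAA at 197 bases before the start. The first matched base lay 2 bases before the start in CARS1, 4 in MARS1, 13 in IARS1, 33 in GARS1 and 187 in AARS1. In TARS1 and NARS1 it lay after the start, at bases 3 and 15 counted with the start as base 1. In 2 further letter searches, CACGTG was present in 1 of 16 cytosolic and 3 of 14 mitochondrial genes (8.77% of all genes), and CCAAT in 7 of 16 and 9 of 14 (39.7% of all genes). A match is a string of letters and was not tested for binding by any factor.

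Library totals lay between 45356024 and 107436235 counts with a median of 55222338, and the lowest total for any synthetase gene in any library was 201 counts, for SARS2. The level of HBS1L mRNA fell in the HBS1L line by 1.54 ± 0.03 log2 units at 48 h and by 1.71 ± 0.03 at 96 h. Beyond the control line these HBS1L changes were -1.67 ± 0.05 and -1.77 ± 0.05. PELO mRNA in the PELO line was 23.7, 25.9 and 25.98 CPM without and 20.9, 20.2 and 20.9 CPM with doxycycline at 48 h. That change within the line, -0.29 ± 0.06, was called, as was one of -0.16 ± 0.05 in the control line. At 96 h the change within the PELO line, -0.04 ± 0.05, was not called. Beyond the control line PELO mRNA was -0.13 ± 0.08 at 48 h and 0.01 ± 0.08 at 96 h. Neither of these differences passed the test, so PELO mRNA does not check that label. The epithelial keratins KRT8, KRT18 and KRT19 were present in every library, while EPCAM and CDH1 stayed at or below 0.0542 CPM. PTPRC, CD3E, PECAM1, KDR, DCN and LUM, which define leukocytes, endothelium and fibroblasts, were at or below 0.0614 CPM in all 36 libraries. Other genes on the same lists were expressed: COL1A2, on the fibroblast list, reached 248 CPM, CD68 and CD14, on the leukocyte list, 43.5 and 8.49 CPM, and CDH5, on the endothelial list, 40.7 CPM. These genes moved in several comparisons used here. In the PELO line at 96 h the 5 epithelial markers summed to 3255 to 3609 CPM without doxycycline and to 1516 to 1858 CPM with it, the 5 fibroblast markers to 211 to 232 and to 29.5 to 33.2, and the 4 endothelial markers to 14.8 to 17.5 and to 0.832 to 1.31. The 5 leukocyte markers summed to 24.3 to 25.7 and to 41.5 to 43.9 CPM there, with log2 changes of 1.04 ± 0.04 for CD68 and -2.98 ± 0.17 for CD14. At 48 h in that line the fibroblast sum was 141 to 148 CPM without and 87.4 to 96.3 with doxycycline, and the endothelial sum 33.0 to 40.7 without and 7.32 to 10.7 with it. The fibroblast sum at 48 h was 154 to 164 CPM without and 232 to 249 with doxycycline in the control line, and 123 to 132 without and 177 to 188 with it in the HBS1L line. The endothelial sum in the HBS1L line was 20.8 to 25.1 CPM without and 12.4 to 14.9 with doxycycline at 48 h, and 16.1 to 22.6 without and 8.63 to 10.1 with it at 96 h. The part of these marker changes in the synthetase results was not tested. In bulk RNA, fewer cells of a kind and less RNA per cell cannot be told apart.

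Levels are given as CPM, on library sizes scaled by edgeR's TMM method, and per kilobase of exonic length where genes are set beside each other. Averaged over the 12 groups, the most abundant cytosolic transcripts per kilobase were GARS1 at 121 CPM per kb, AARS1 at 115 and NARS1 at 95.4. TARS3, a second threonine enzyme, was the least abundant at 1.74 CPM per kb. Among the mitochondrial genes IARS2 stood highest at 84.2 CPM per kb, followed by YARS2 at 37.2, and VARS2 was lowest at 2.34. IARS2 and YARS2 were the mitochondrial genes whose level per kilobase exceeded that of the cytosolic partner in untreated control cells at 96 h. There IARS1 was at 59 CPM per kb and IARS2 at 90.7. For tyrosine, YARS1 was at 31.3 and YARS2 at 38.6 CPM per kb. The serine pair was the opposite case, with SARS1 at 52.8 and SARS2 at 2.56 CPM per kb. The exonic length joins all annotated exons of a gene, and the IARS2 and YARS2 results rest on it. It was 7.401 kb for IARS1 and 4.165 kb for IARS2, and 8.212 kb for YARS1 and 2.152 kb for YARS2. In CPM averaged over the 12 groups, IARS1 was at 493.4 and IARS2 at 350.6. YARS1 was at 296.6 and YARS2 at 80.05 CPM.

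Summed over the 20 cytosolic genes, the 2 highest groups were untreated control cells at 48 h and doxycycline-treated PELO-guide cells at 96 h. In the control line at 48 h the sum was 7122 ± 186 CPM (SD, n = 3) without doxycycline and 4779.5 ± 54.1 with it. In the PELO line it was 6419 ± 119 and 6658 ± 72.8 CPM at 48 h, and 5694 ± 181 and 7011 ± 141 at 96 h. The HBS1L line had 6143 ± 109 and 4626 ± 97.2 CPM at 48 h and 5078 ± 170.0 and 5659.9 ± 231 at 96 h. In the control line at 96 h the sums with and without doxycycline, 5280.4 ± 85.5 and 5154 ± 67.1 CPM, lay close together. The sum of the 16 mitochondrial genes moved over a narrower range, from 788 ± 4.49 CPM in treated PELO cells at 48 h to 955 ± 9.29 in treated control cells at 96 h, and it was lower in treated than in untreated PELO cells at both times. IARS2 gave the largest part of that sum, averaging 350.6 CPM with a 1.31-fold range of group means. Single mitochondrial genes ranged from 1.18-fold (RARS2) to 2.54-fold (SARS2), and cytosolic ones from 1.18-fold (HARS1) to 2.29-fold (WARS1).

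**Figure D1:**
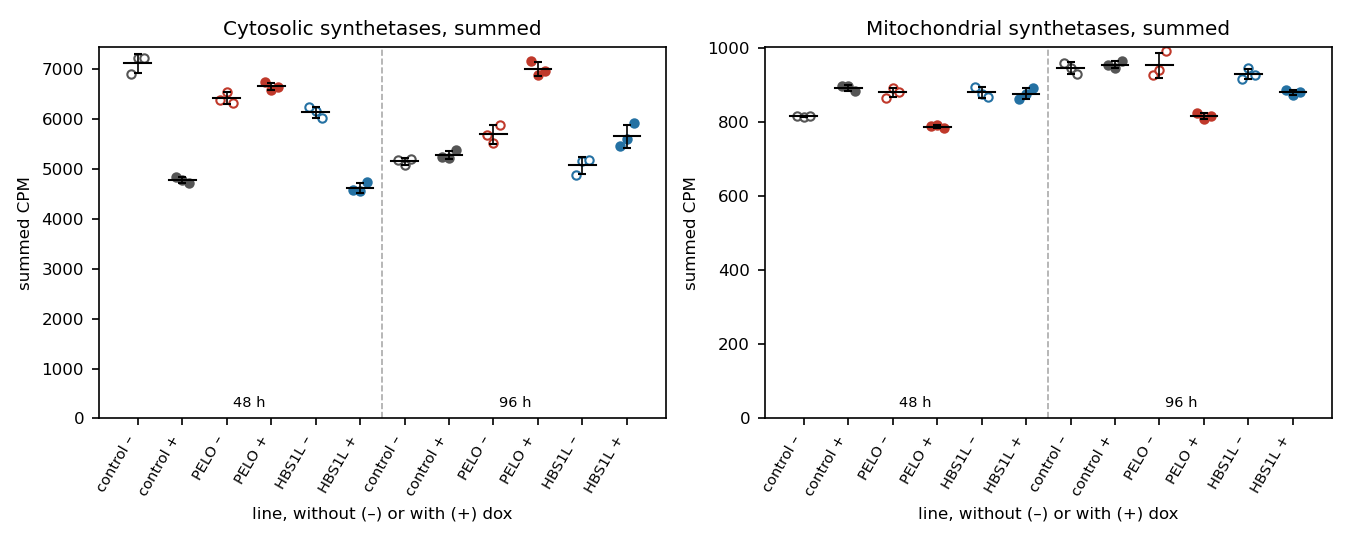
Summed level of the 20 cytosolic genes and of the 16 mitochondrial genes in each library, in CPM. Points are libraries, open without and filled with doxycycline, by guide and time; bars are group means with the SD of 3 libraries. At 48 h the control line's cytosolic sum was 7122 CPM without and 4780 CPM with doxycycline, and at 96 h the PELO line's was 5694 and 7011 CPM.

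Cytosolic synthetase transcripts fell in the control line after 48 h of doxycycline. Of the 20 genes 13 fell and none rose, with a median of -0.56 log2 units against 0.02 over all genes, while 35% of all 20767 genes tested were called in either direction at an adjusted p under 0.05 (16% down; edgeR quasi-likelihood test, Benjamini-Hochberg over all genes). GARS1, the glycine enzyme, was at 729.6, 748 and 754 CPM in the 3 untreated libraries and at 339.6, 332 and 338 in the 3 treated ones, with no overlap. Its log2 change was -1.14 ± 0.04 (SE; adjusted p = 2.68e-23). The cysteine enzyme CARS1 fell by 1.13 ± 0.04, the methionine enzyme MARS1 by 0.99 ± 0.04 and the serine enzyme SARS1 by 0.99 ± 0.04. The remaining falls were of WARS1 (0.86), YARS1 (0.78), AARS1 (0.72), IARS1 (0.68), TARS1 (0.58), NARS1 (0.57), EPRS1 (0.55), VARS1 (0.17) and LARS1 (0.12). The call for LARS1 was lost in 4 of the 6 fits that left out 1 library, namely replicate 2 or 3 of either group, and that for VARS1 without untreated replicate 2. FARSA, FARSB, HARS1, KARS1, QARS1, RARS1 and TARS3 did not pass the test, the largest of these values being 0.11 for TARS3.

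The mitochondrial genes did not share that fall. In the same libraries 5 of 16 rose and none fell (19% of all genes rose), with LARS2 (0.51), HARS2 (0.40), AARS2 (0.32), TARS2 (0.28) and EARS2 (0.25) and a median of 0.08. LARS2, the mitochondrial leucine enzyme, was at 23.5, 25.6 and 23.4 CPM without and 36.4, 34.4 and 32.7 CPM with doxycycline, with no overlap. Transcripts of the ATF4 pathway moved with the cytosolic genes: the 10 amino acid response genes on the list used here summed to 2254 CPM without and 820.3 CPM with doxycycline, and ATF4 itself fell by 1.27 ± 0.06. At 96 h the control line showed little: of the cytosolic genes only WARS1, the tryptophan enzyme, fell (-0.17 ± 0.04), of the mitochondrial genes only MARS2 rose (0.20 ± 0.06), and 7.52% of all genes were called (3.89% up, 3.63% down). The WARS1 call was lost without treated control replicate 1, and the MARS2 call was kept in 2 of the 6 fits that left out 1 library, those without untreated replicate 3 or treated replicate 2. Untreated control cells at 96 h had an amino acid response sum of 858 CPM and treated ones of 822. The response at 96 h exceeded that at 48 h for 13 of the 20 cytosolic genes and lay below it for 4 of the 16 mitochondrial genes (26.5% of all genes differed, 12.3% higher and 14.1% lower).

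In the PELO line at 48 h the cytosolic genes showed no common direction. Within the line 6 rose, 3 fell and 11 were not called, with a median of 0.03, where 48% of all genes were called (24.2% up, 23.7% down). The rises were of TARS1 (0.32), FARSA (0.30), GARS1 (0.28), SARS1 (0.27), FARSB (0.24) and KARS1 (0.14), and the falls of QARS1 (0.33), IARS1 (0.16) and CARS1 (0.11). Treated and untreated libraries overlapped for IARS1. Set against the control line, that is, as the difference between the response to doxycycline in the PELO line and the response in the control line, 14 of 20 were higher and 1 was lower, with a median of 0.48 against -0.04 over all genes. Of all genes tested, 47.9% were called, 22.9% being higher and 24.9% lower in this comparison. In 9 of the 14 genes the difference was 1.5-fold or more.

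GARS1 showed the largest difference. It was at 593, 608 and 598 CPM in untreated and 709, 735 and 736 CPM in treated PELO cells, beside 744 ± 12.9 and 337 ± 3.999 CPM (mean ± SD, n = 3) in the control line. All treated PELO libraries lay above the untreated ones, whereas all treated control libraries lay below theirs. The difference was 1.42 ± 0.05 log2 units (SE; adjusted p = 5.08e-22). SARS1 was at 294, 301 and 304 CPM without and 360.4, 354 and 367 CPM with doxycycline in the PELO line, and at 370.0 ± 2.18 and 186 ± 1.24 CPM in the control line. Its treated and untreated PELO libraries did not overlap, and the difference from the control response was 1.26 ± 0.05. CARS1 was at 147, 141 and 145 CPM without and 133, 135 and 133 CPM with doxycycline in the PELO line and at 167 ± 2.92 and 76.00 ± 1.23 CPM in the control line. Its difference of 1.02 ± 0.06 arose with a small fall in the PELO line beside a larger one in the control line. MARS1 behaved alike, at 254 ± 3.37 and 246 ± 8.84 CPM in the PELO line, and its difference was 0.94 ± 0.06. The exons of MARS1 overlap those of other genes over 13.3% of their length, among them the stress gene DDIT3 on the opposite strand, and whether the counting used strand is not given in the sources used here; DDIT3 was at 16.9 ± 2.14 CPM in untreated and 54.9 ± 1.44 CPM in treated PELO cells.

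The other cytosolic genes that were higher beyond the control line at 48 h were TARS1 (0.90), WARS1 (0.84), AARS1 (0.78), YARS1 (0.77), NARS1 (0.63), IARS1 (0.52), EPRS1 (0.44), FARSA (0.31), VARS1 (0.24) and FARSB (0.16). The FARSB call was lost in 5 of 12 fits that left out 1 library, those without untreated control replicate 2, treated control replicate 1, untreated PELO replicate 3 or treated PELO replicate 2 or 3. RARS1, KARS1, HARS1, LARS1 and TARS3 did not pass the test, at values from -0.18 to 0.11. The 7 genes of the multisynthetase complex in this set, EPRS1, IARS1, KARS1, LARS1, MARS1, QARS1 and RARS1, had a median of 0.11, and 3 were higher and 1 lower. The 13 cytosolic genes outside the complex had a median of 0.77, with 11 higher and none lower, where 22.9% of all genes were higher and 24.9% lower. Treated PELO libraries set directly against treated control libraries gave 16 higher and 2 lower cytosolic genes, where 57.3% of all genes were called (27.6% higher, 29.6% lower).

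**Figure D2:**
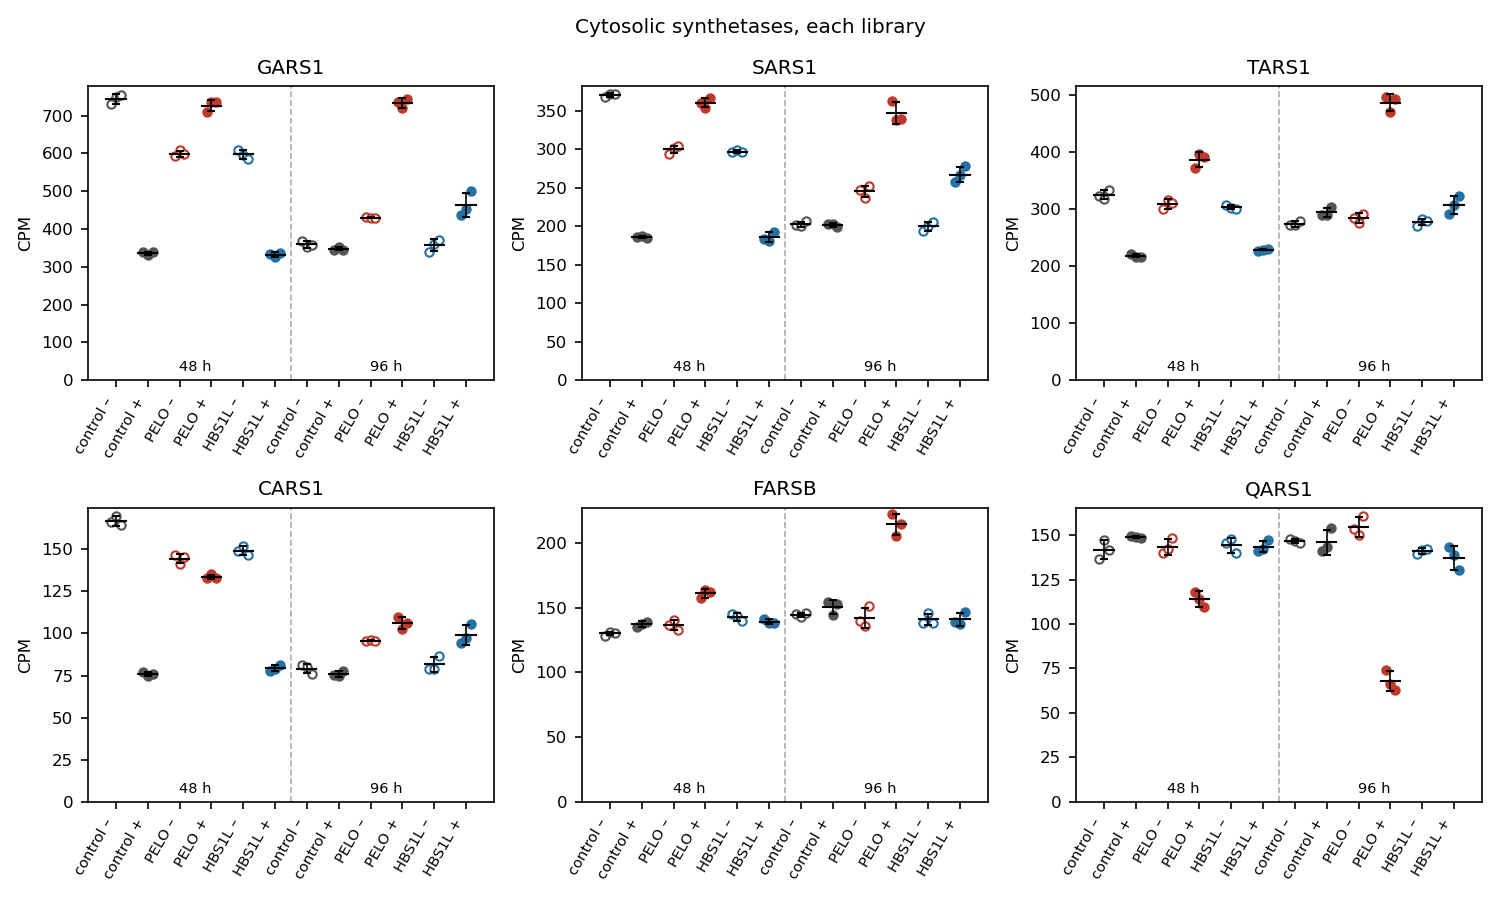
Level in each library, in CPM, of 6 cytosolic synthetase genes by guide and time. Points are libraries, open without and filled with doxycycline; bars are group means with the SD of 3 libraries. GARS1 and SARS1 fell with doxycycline in the control line at 48 h and rose in the PELO line, and QARS1 was lowest in the treated PELO line at 96 h.

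At 96 h the cytosolic genes rose within the PELO line itself. Of the 20, 16 rose and 1 fell, with a median of 0.27, in a comparison where 66.8% of all genes were called (34.4% up, 32.5% down). TARS1, the threonine enzyme, was at 285, 276 and 292 CPM without and 497, 470.0 and 494 CPM with doxycycline, with no overlap, while the control line had 274 ± 4.74 and 294 ± 7.64 CPM. It rose by 0.78 ± 0.04 within the line (adjusted p = 6.60e-20) and by 0.67 ± 0.05 beyond the control line. GARS1 was at 433, 429 and 429 CPM without and 737, 719.5 and 745 with doxycycline, again with no overlap, and at 359.9 ± 9.10 and 348 ± 4.19 CPM in the control line. Its rise beyond the control line was 0.82 ± 0.05 (adjusted p = 2.53e-15). FARSB, the beta subunit of the phenylalanine enzyme, was at 139.7, 136 and 151 CPM without and 223, 206 and 215 CPM with doxycycline, and rose by 0.53 ± 0.06 beyond the control line. NARS1, the asparagine enzyme, was at 363, 355 and 353 CPM without and 545, 531 and 539 CPM with doxycycline, and rose by 0.51 ± 0.05. For FARSB and NARS1 too, each treated library lay above each untreated one. The other rises within the line were of SARS1 (0.50), FARSA (0.47), RARS1 (0.42), KARS1 (0.36), TARS3 (0.33), WARS1 (0.31), AARS1 (0.22), IARS1 (0.21), MARS1 (0.20), CARS1 (0.15), YARS1 (0.11) and HARS1 (0.08). The HARS1 call was lost in all 6 fits that left out 1 library, and the YARS1 call without untreated replicate 2 or treated replicate 1.

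Beyond the control line at 96 h, 14 of the 20 cytosolic genes were higher and 1 lower, with a median of 0.23 against 0.02 over all genes; 54.8% of all genes were called, 28.7% higher and 26% lower. Besides the 4 genes above these were SARS1 (0.51), WARS1 (0.48), TARS3 (0.42), FARSA (0.34), RARS1 (0.34), KARS1 (0.26), CARS1 (0.21), AARS1 (0.16), MARS1 (0.16) and YARS1 (0.14). Only 2 of the 14, GARS1 and TARS1, differed 1.5-fold or more. The smallest differences were fragile. The call for AARS1 was kept in 1 of 12 fits that left out 1 library, the fit without untreated control replicate 2. Those for MARS1 and YARS1 were each kept in 2 of 12 fits, without untreated control replicate 2 and, respectively, without untreated or treated PELO replicate 3. EPRS1, HARS1, IARS1, LARS1 and VARS1 did not pass the test. Across both times 11 cytosolic genes were higher beyond the control line: AARS1, CARS1, FARSA, FARSB, GARS1, MARS1, NARS1, SARS1, TARS1, WARS1 and YARS1. These 2 comparisons share no library.

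The complex again had the smaller share. Of the 7 multisynthetase complex genes 3 were higher and 1 lower at 96 h, with a median of 0.12, and of the 13 others 11 were higher and none lower, with a median of 0.42. Over all genes, 28.7% were higher and 26% lower at 96 h. No test of the difference between the 2 groups of genes was made. By structural class, the 2 unrelated folds into which synthetases fall, 9 of 10 cytosolic class II genes and 5 of 9 class I genes were higher at 96 h, leaving out EPRS1, which joins an enzyme of each class. At 48 h these counts were 7 of 10 and 6 of 9, where 22.9% of all genes were higher. The counts at 96 h include AARS1, MARS1 and YARS1, whose calls were lost in most fits that left out 1 library.

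QARS1, the glutamine enzyme and a member of the multisynthetase complex, was the exception among the cytosolic genes. It lies at chr3:49095932-49105135 (GRCh38, GENCODE 29). In the PELO line it was at 139.8, 142 and 148 CPM without and 118, 114 and 109 CPM with doxycycline at 48 h, and at 153, 149.9 and 161 CPM without and 74.2, 66.5 and 63.04 CPM with doxycycline at 96 h. The treated libraries lay below the untreated ones at both times. Control cells were at 147 ± 1.17 and 146 ± 6.93 CPM at 96 h, and treated HBS1L cells at 137 ± 6.74. QARS1 fell beyond the control line by 0.40 ± 0.07 at 48 h (adjusted p = 2.86e-06) and by 1.18 ± 0.07 at 96 h (adjusted p = 1.48e-17). It was the only cytosolic member lower in both of these comparisons, and its HBS1L differences of -0.08 and -0.03 did not pass the test. In each of the 12 fits that left out 1 library the call was kept at both times.

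Mitochondrial synthetase transcripts moved the other way in the PELO line. Within the line 7 of 16 fell and 1 rose at 48 h (23.7% of all genes fell and 24.2% rose), and 10 fell and 2 rose at 96 h (32.5% fell and 34.4% rose). The 7 that fell at 48 h were EARS2, FARS2, IARS2, SARS2, TARS2, VARS2 and WARS2. Beyond the control line 10 of the 16 genes were lower and 1 higher at 48 h (median -0.32), and 10 lower and 2 higher at 96 h (median -0.30). Of all genes, 24.9% were lower and 22.9% higher at 48 h, and 26% lower and 28.7% higher at 96 h. Lower at both times were AARS2, EARS2, FARS2, IARS2, LARS2, SARS2, TARS2 and VARS2.

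SARS2, the mitochondrial serine enzyme, had the largest fall in the PELO line at 96 h besides QARS1, within the line and beyond the control line. It was at 8.14, 9.36 and 9.90 CPM without and 6.71, 6.71 and 6.64 CPM with doxycycline at 48 h, and at 8.45, 8.66 and 8.95 CPM without and 4.62, 3.95 and 3.63 CPM with doxycycline at 96 h. Treated libraries lay below untreated ones at both times, and the control line was at 8.26 ± 0.793 and 7.76 ± 0.317 CPM at 96 h. The fall beyond the control line was 0.45 ± 0.10 at 48 h and 1.01 ± 0.10 at 96 h (adjusted p = 3.44e-04 and 1.48e-10). SARS2 lies at chr19:38915266-38930896, and 57.0% of its exonic length is shared with the annotated gene AC011455.2 on the same strand, so how the counting assigned shared reads bears on its level.

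EARS2, the mitochondrial glutamate enzyme at chr16:23522014-23557731, was at 34.7, 36.2 and 33.1 CPM without and 29.2, 28.4 and 28.9 with doxycycline at 48 h, and at 37.7, 39.9 and 41.3 CPM without and 25.4, 25.01 and 25.5 CPM with doxycycline at 96 h, with no overlap at either time. It fell beyond the control line by 0.52 ± 0.07 and by 0.73 ± 0.07 (adjusted p = 3.22e-08 and 3.78e-12). TARS2, the mitochondrial threonine enzyme, was at 77.9, 77.1 and 75.4 CPM without and 66.7, 63.4 and 63.8 CPM with doxycycline at 48 h, and at 74.3, 73.1 and 81.3 CPM without and 58.7, 56.3 and 55.7 CPM with doxycycline at 96 h. Its untreated and treated PELO libraries were likewise apart at both times, and the differences from the control response were -0.53 ± 0.06 and -0.45 ± 0.06. FARS2, the mitochondrial phenylalanine enzyme, was at 25.1, 26.1 and 29.2 CPM without and 18.97, 17.5 and 18.1 CPM with doxycycline at 96 h, and the difference from the control response was -0.57 ± 0.08. LARS2 was at 31.3, 31.01 and 26.4 CPM without and 33.5, 27.6 and 27.1 CPM with doxycycline at 48 h, so its difference of -0.52 ± 0.10 came with a rise in the control line and overlapping libraries in the PELO line.

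The others lower at both times were IARS2 (-0.39 and -0.34), VARS2 (-0.47 and -0.48) and AARS2 (-0.36 and -0.26). HARS2 (-0.34) and RARS2 (-0.14) were lower at 48 h, the latter losing its call in 6 of 12 fits that left out 1 library, those without untreated control replicate 3, treated control replicate 1, 2 or 3, untreated PELO replicate 3 or treated PELO replicate 1. WARS2 (-0.46) and YARS2 (-0.18) were lower at 96 h, and YARS2 lost its call in 6 of 12 such fits, those without untreated control replicate 1 or 2, treated control replicate 3, untreated PELO replicate 3 or treated PELO replicate 2 or 3. NARS2 and PARS2 did not pass the test at either time. Within the PELO line at 48 h, AARS2 (-0.04), HARS2 (0.05) and RARS2 (-0.08) were not called. The 48 h differences of AARS2 and HARS2 came with rises in the control line, of 0.32 and 0.40. VARS2 shares 22.0% of its exonic length with GTF2H4 on the same strand. HARS1 and HARS2 start 436 bases apart on opposite strands, with 15.8% of the exonic length of HARS2 and 8.4% of that of HARS1 overlapping, and reads from the shared stretch cannot be told apart without strand.

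**Figure D3:**
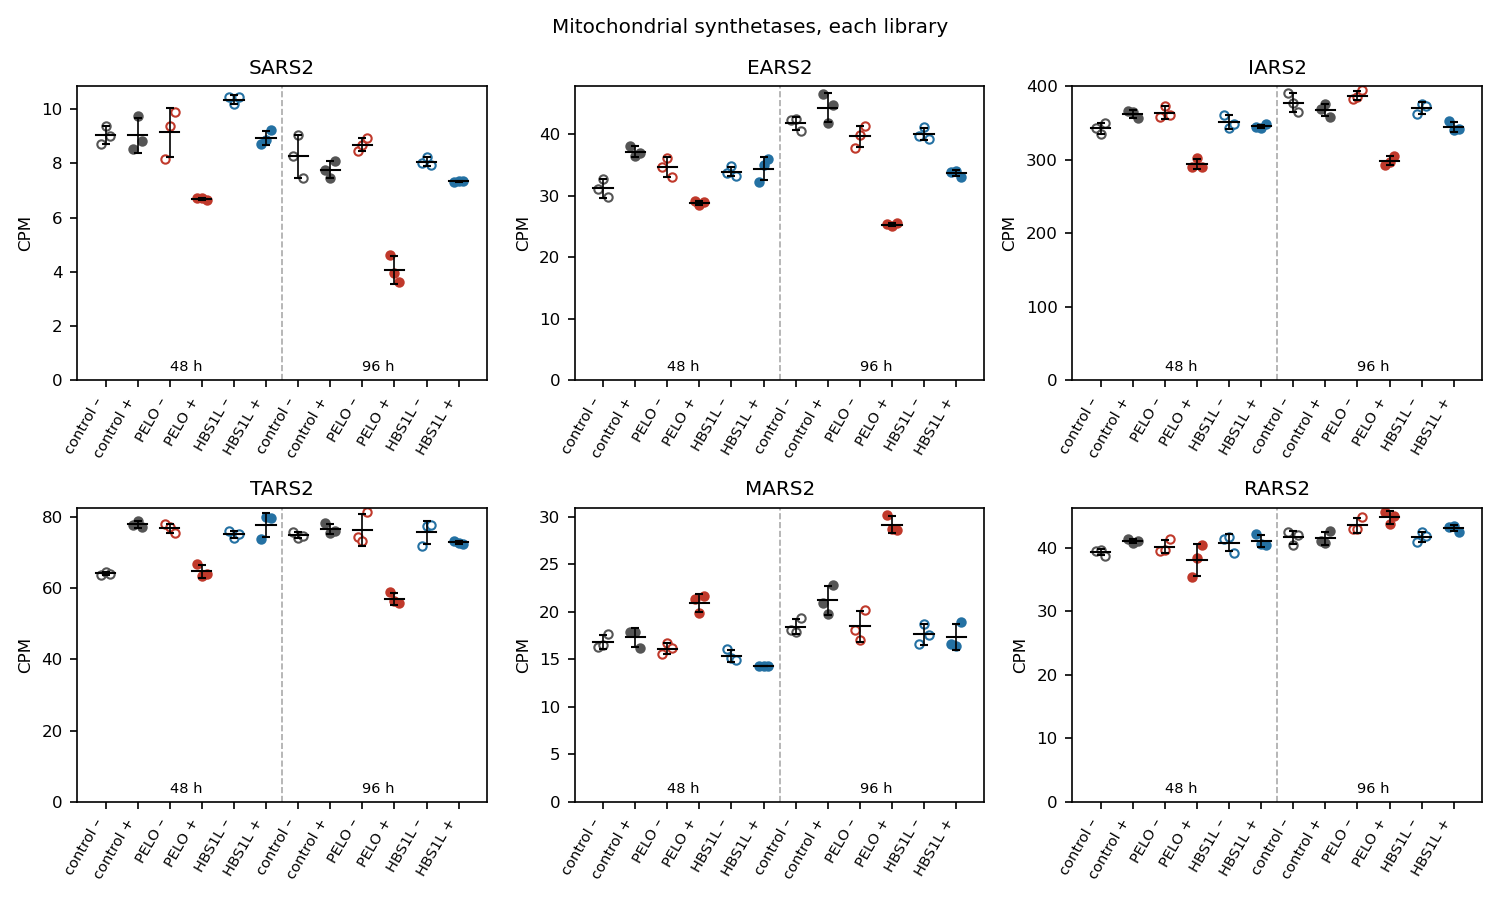
Level in each library, in CPM, of 6 mitochondrial synthetase genes by guide and time. Points are libraries, open without and filled with doxycycline; bars are group means with the SD of 3 libraries. SARS2, EARS2, IARS2 and TARS2 were lower in treated than in untreated PELO cells at both times, and MARS2 was higher.

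MARS2, the mitochondrial methionine enzyme at chr2:197705369-197708387, was the member of its class that rose at both times. In the PELO line it was at 15.5, 16.7 and 16.1 CPM without and 21.3, 19.8 and 21.6 CPM with doxycycline at 48 h, and at 18.1, 17.1 and 20.2 CPM without and 30.2, 28.7 and 28.6 CPM with doxycycline at 96 h, with no overlap at either time. The rise beyond the control line was 0.33 ± 0.09 and 0.46 ± 0.09 (adjusted p = 0.0025 and 2.68e-05). CARS2, the mitochondrial cysteine enzyme, differed between the targeted lines at 96 h. It was at 68.1, 69.1 and 75.2 CPM without and 87.9, 83.2 and 85.2 CPM with doxycycline in the PELO line, which did not overlap, and at 81.4, 78.6 and 76.99 CPM without and 76.1, 73.4 and 72.6 CPM with doxycycline in the HBS1L line. Beyond the control line CARS2 was 0.17 ± 0.06 in PELO cells and -0.19 ± 0.06 in HBS1L cells, both called, and the difference between the 2 lines was 0.36 ± 0.06 (adjusted p = 7.28e-06). The first of these calls was lost in 7 of 12 fits that left out 1 library, those without untreated control replicate 3, treated control replicate 1 or 2, untreated PELO replicate 1 or 2 or treated PELO replicate 1 or 3. The second was kept in 1 of 12, the fit without treated control replicate 2.

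In the HBS1L line at 48 h, cytosolic synthetase transcripts fell with doxycycline as they did in the control line. Within the line 12 of 20 fell and none rose, with a median of -0.34, where 21.5% of all genes were called (10.1% up, 11.4% down). The largest falls were of CARS1 (0.91), GARS1 (0.84), MARS1 (0.70), SARS1 (0.68) and WARS1 (0.68). Set against the control response, 6 cytosolic genes fell less and none fell more, with a median of 0.15 against -0.01 over all genes, where 3.85% of all genes were called, 1.41% higher and 2.44% lower. SARS1 was at 296, 298 and 296 CPM without and 184, 181 and 192 CPM with doxycycline, and its difference from the control response was 0.32 ± 0.05 (adjusted p = 1.16e-04). The libraries with doxycycline all lay below those without. IARS1, the isoleucine enzyme, was at 531, 526 and 492 CPM without and 399.5, 389.9 and 417 CPM with doxycycline, with a difference of 0.32 ± 0.07. GARS1 was at 609.7, 596 and 586 CPM without and 335, 326 and 337 CPM with doxycycline, with a difference of 0.30 ± 0.05, and MARS1 at 251, 252 and 239 CPM without and 149, 147 and 162 CPM with doxycycline, with a difference of 0.30 ± 0.06. For these 3 too, treated libraries lay below untreated ones.

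The remaining 2 were CARS1 (0.22), whose call was lost without treated control replicate 2 or treated HBS1L replicate 3, and YARS1 (0.19), lost in 6 of 12 fits that left out 1 library, those without untreated control replicate 2 or 3, treated control replicate 1, untreated HBS1L replicate 1 or 3 or treated HBS1L replicate 3. Untreated HBS1L cells at 48 h already had less of these transcripts than untreated control cells: 12 cytosolic genes were lower and 5 higher (37.9% of all genes differed, 18.7% higher and 19.2% lower). When the treated HBS1L and treated control libraries were set side by side at 48 h, a comparison chosen after seeing the data, GARS1, SARS1 and IARS1 were at -0.02, -0.001 and -0.02, none called, and the only cytosolic genes called were EPRS1 (-0.22) and WARS1 (-0.34), both lower; 23.1% of all genes were called (9.47% higher, 13.6% lower).

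At 96 h the direction within the HBS1L line was the opposite. Of the cytosolic genes 8 rose and TARS3 alone fell (-0.26), where 19.9% of all genes were called (11% up, 8.9% down). The 8 were SARS1 (0.42), GARS1 (0.38), WARS1 (0.29), CARS1 (0.28), YARS1 (0.24), AARS1 (0.23), MARS1 (0.22) and TARS1 (0.15). Beyond the control line 5 were higher and none lower, with a median of 0.002, where 10.7% of all genes were called, 5.41% higher and 5.32% lower. WARS1 was at 381, 398 and 413 CPM without and 466, 482 and 514 CPM with doxycycline, and at 438 ± 3.67 and 390.3 ± 13.2 CPM in the control line. The HBS1L libraries did not overlap, and the difference was 0.46 ± 0.05 (adjusted p = 1.61e-07). GARS1 was at 340.1, 360.1 and 372 CPM without and 438, 453 and 500.4 CPM with doxycycline, with a difference of 0.43 ± 0.05. SARS1 was at 193, 200.3 and 205 CPM without and 257, 266 and 278 CPM with doxycycline, with a difference of 0.43 ± 0.05, and CARS1 at 78.96, 79.1 and 86.8 CPM without and 94.3, 97.4 and 106 CPM with doxycycline, with a difference of 0.34 ± 0.06. In all 3 the treated libraries lay above the untreated ones. YARS1 was the fifth, at 0.26. Between untreated HBS1L and untreated control cells at 96 h no synthetase was called by edgeR's quasi-likelihood test, by DESeq2 or by limma, where 0.135% of all genes were called (0.0867% higher, 0.0482% lower); 3 genes, FARSA, HARS1 and WARS1, had an unadjusted p under 0.05.

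Beyond the control line 3 of 16 mitochondrial genes were lower in the HBS1L line at each time and none was higher, where 2.44% of all genes were lower at 48 h and 5.32% at 96 h. EARS2 (-0.23 ± 0.07), TARS2 (-0.23 ± 0.06) and HARS2 (-0.19 ± 0.05) were lower at 48 h, and LARS2 (-0.33 ± 0.09), EARS2 (-0.33 ± 0.06) and CARS2 at 96 h. EARS2 was at 39.7, 41.1 and 39.2 CPM without and 33.9, 34.01 and 33.1 CPM with doxycycline at 96 h, with no overlap. LARS2 was at 40.03, 43.9 and 41.3 CPM without and 33.6, 32.7 and 37.5 CPM with doxycycline, also with no overlap. At 48 h TARS2 was at 76.1, 74.1 and 75.1 CPM without and 73.9, 79.9 and 79.6 CPM with doxycycline and HARS2, the mitochondrial histidine enzyme, at 43.6, 43.8 and 41.7 CPM without and 48.9, 49.5 and 50.2 CPM with doxycycline. Those 48 h differences came with a rise in the control line, and they rest on few libraries: EARS2 kept its call in 3 of 12 fits that left out 1 library, those without untreated control replicate 2, untreated HBS1L replicate 3 or treated HBS1L replicate 3. HARS2 lost its call in 8 of 12, those without untreated control replicate 2 or 3, treated control replicate 2 or 3, untreated HBS1L replicate 1 or 2 or treated HBS1L replicate 1 or 2, and TARS2 without treated HBS1L replicate 1. The LARS2 call at 96 h was lost without replicate 2 of untreated control, untreated HBS1L or treated HBS1L cells. The EARS2 call at 96 h was kept throughout.

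**Figure D4:**
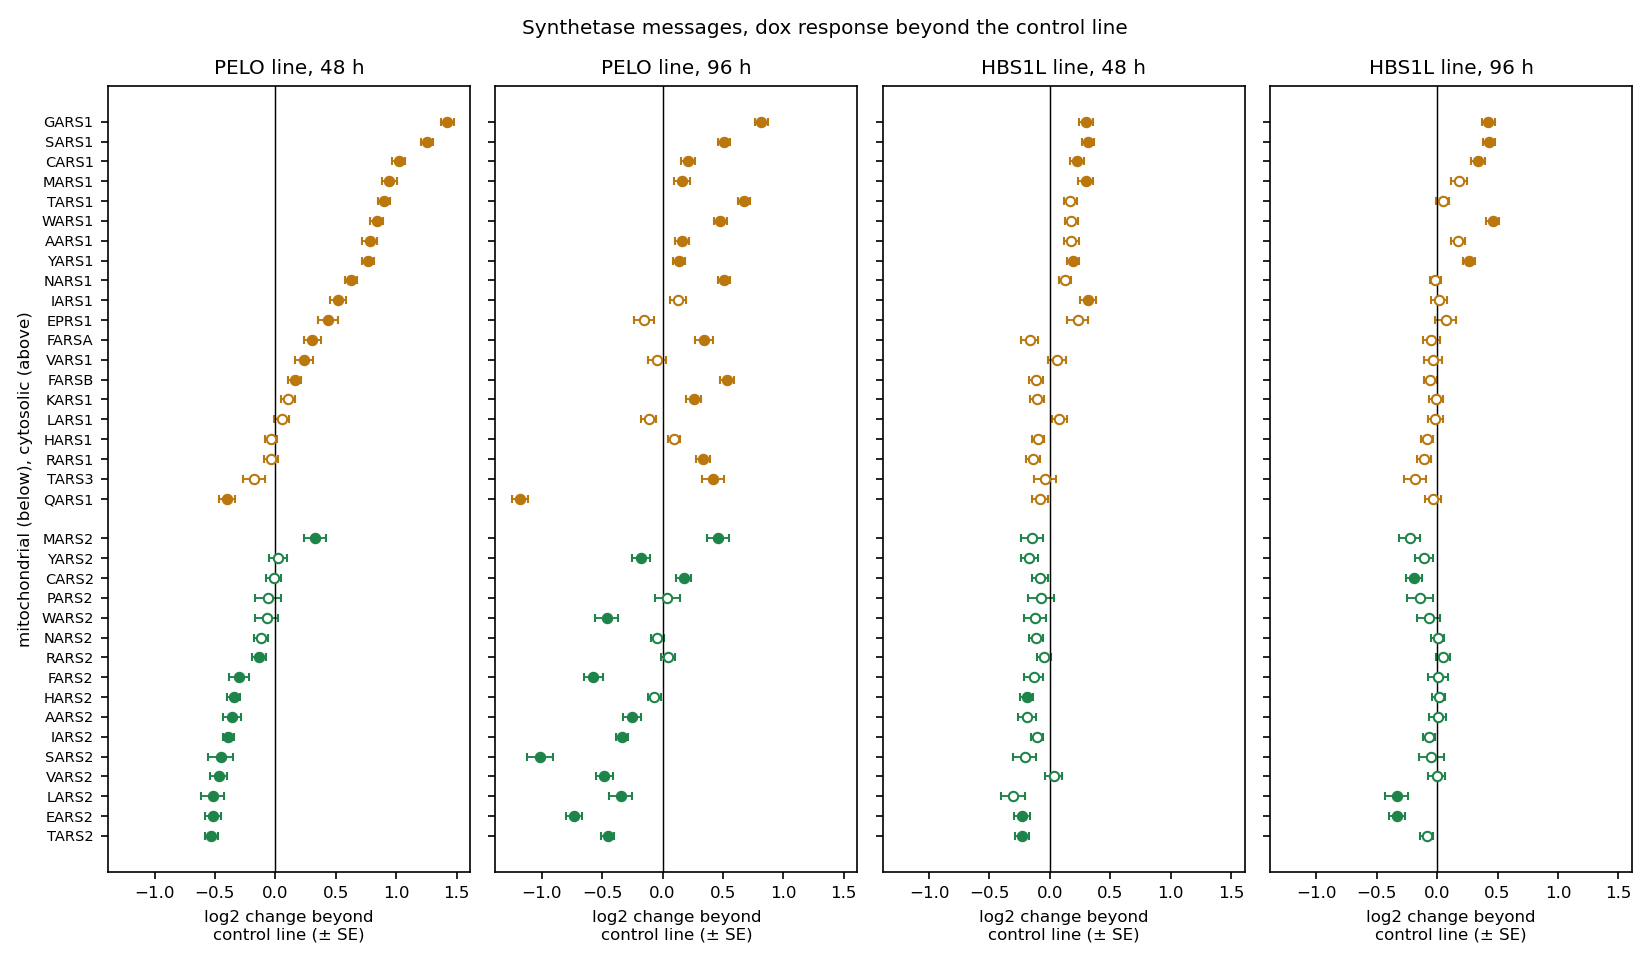
Difference between the doxycycline response of a targeted line and that of the control line, in log2 units with its standard error, for all 36 genes in the PELO and HBS1L lines at 48 h and 96 h. Orange is cytosolic and green mitochondrial; filled points have an adjusted p under 0.05. In the PELO line at 48 h the cytosolic genes lay at a median of 0.48 and the mitochondrial genes at -0.32, and in the HBS1L line at 0.15 and -0.14.

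The difference between the PELO and HBS1L responses was tested directly. At 48 h 15 cytosolic genes were higher in the PELO response and QARS1 alone was lower (-0.32 ± 0.07), where 43.2% of all genes differed (21.9% higher, 21.3% lower). GARS1 differed by 1.12 ± 0.05, SARS1 by 0.94 ± 0.05, CARS1 by 0.80 ± 0.06 and TARS1 by 0.73 ± 0.05. At 96 h 9 cytosolic genes were higher and 4 lower, where 55.5% of all genes differed (29.1% higher, 26.4% lower). TARS1 (0.63 ± 0.05), TARS3 (0.60 ± 0.09), FARSB (0.59 ± 0.06) and NARS1 (0.52 ± 0.05) were the highest, and QARS1 (-1.15 ± 0.07), EPRS1 (-0.22 ± 0.08), CARS1 (-0.13 ± 0.06) and YARS1 (-0.13 ± 0.05) the 4 that were lower. SARS1 (0.08 ± 0.05) and WARS1 (0.02 ± 0.05), which rose in both lines at 96 h, did not pass the test of the difference. In the 12 fits that left out 1 library, 13 to 15 cytosolic genes were called at 48 h, where the full fit called 16. At 96 h these fits called 10 to 14, where the full fit called 13. Among mitochondrial genes 5 were lower and 2 higher in the PELO response at 48 h, and 8 lower and 2 higher at 96 h. SARS2 (-0.97 ± 0.10) was the lowest at 96 h and MARS2 (0.69 ± 0.09) the highest. The comparisons of each targeted line with the control line share the control libraries, so their values stand side by side here and were not correlated.

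The lines also differed before any doxycycline was added. In untreated PELO cells at 48 h, 7 cytosolic genes were lower and none higher than in untreated control cells, and 5 mitochondrial genes were higher and none lower, where 11.1% of all genes differed (6.37% higher, 4.72% lower). At 96 h 11 cytosolic genes were higher and 2 lower, and 2 mitochondrial genes were lower, where 21.8% of all genes differed (10.3% higher, 11.5% lower). GARS1, for example, was -0.31 ± 0.04 at 48 h and 0.26 ± 0.04 at 96 h. In untreated HBS1L cells at 48 h, besides the cytosolic differences given above, 9 of 16 mitochondrial genes were higher and none lower than in untreated control cells (18.7% of all genes were higher), among them TARS2 (0.23 ± 0.04), HARS2 (0.20 ± 0.04) and EARS2 (0.12 ± 0.05), which are the 3 called lower beyond the control line in that line at 48 h. The PELO baseline differences are smaller than the differences in response for GARS1 and SARS1, but not for every group of genes. At 96 h the 9 cytosolic class I genes had a median baseline difference of 0.17 and a median difference in response of 0.14. For the 10 class II genes these medians were 0.03 and 0.46. At 48 h they were -0.20 and 0.52 for class I and -0.06 and 0.47 for class II. Baseline differences enter every value given relative to the untreated cells of the same line.

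Pairs of enzymes for the same amino acid were compared within the PELO line. In all 17 pairs at 48 h and in 15 of 17 at 96 h, the change beyond the control line was greater for the cytosolic gene than for its mitochondrial partner; FARS2 and EPRS1 each enter 2 pairs. The exceptions at 96 h were methionine, with MARS1 at 0.16 and MARS2 at 0.46, and proline, with EPRS1 at -0.15 and PARS2 at 0.04. The serine pair moved furthest. The ratio of SARS1 to SARS2 per kilobase was 20.7 in untreated control cells at 96 h and ranged over the 12 groups from 17.4 in treated control cells at 48 h to 71.7 in treated PELO cells at 96 h. For threonine the ratio of TARS1 to TARS2 was 2.61, and it ranged from 2.00 to 6.10 between the same 2 groups. The histidine pair varied least, from 1.37 to 1.78.

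The 7 cytosolic genes whose promoter window held TGATGNAA, shown at the outset, were set beside the 9 whose window did not. In the control line at 48 h all 7 fell (median -0.72), as did 3 of the 9 without a match (median 0.02), where 16% of all genes fell. Beyond the control line in PELO cells, all 7 were higher at 48 h (median 0.90), with 5 higher and 1 lower among the 9 (median 0.16), where 22.9% of all genes were higher and 24.9% lower. At 96 h 6 of the 7 were higher (median 0.21), and of the 9 again 6 were higher and 1 lower (median 0.34), where 28.7% of all genes were higher and 26% lower. SARS1 and WARS1, with no match in the window, were among the genes that fell in the control line and were higher in PELO cells. YARS2, the mitochondrial gene with a match, was at 0.02 in the control line at 48 h and at 0.02 beyond it in PELO cells, neither called. No match in a window says only that these letters are not in it.

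Genes that work with the synthetases were read from lists chosen together with the set. The 3 scaffold proteins of the multisynthetase complex were higher in PELO cells beyond the control line in 2 of 3 cases at 48 h and 3 of 3 at 96 h, where 22.9% and 28.7% of all genes were higher. AIMP2 was 1.12 ± 0.08 and 0.98 ± 0.08, EEF1E1 0.34 ± 0.10 and 0.42 ± 0.10, and AIMP1 0.09 ± 0.06, not called, and 0.58 ± 0.06. AIMP2 was at 45.9 ± 2.19 CPM without and 98.8 ± 7.72 CPM with doxycycline at 96 h. Among 9 genes of transfer RNA editing, maturation and export, 4 were higher and 3 lower at 48 h (22.9% and 24.9% of all genes) and 5 higher and 1 lower at 96 h (28.7% and 26%). XPOT, which exports transfer RNA from the nucleus, was 0.83 ± 0.06 and 0.48 ± 0.06. At 48 h that value came with a change of -0.83 ± 0.04 in the control line, XPOT being at 0.01 ± 0.04 within the PELO line, not called. TRNT1, which adds the CCA end, was 0.63 ± 0.08 and 0.41 ± 0.08, and ELAC2, which trims the 3′ end, was -0.30 ± 0.06 and -0.29 ± 0.06. In HBS1L cells XPOT alone of these was higher at 48 h (0.25 ± 0.06), and at 96 h DTD1, which removes D-amino acids, was higher (0.32 ± 0.08) and ELAC2 lower (-0.19 ± 0.06); no scaffold gene was called. Exons of AIMP2 overlap those of EIF2AK1 on the opposite strand over 28.9% of their length, and those of EEF1E1 a readthrough gene on the same strand over 18.7%, so the caution given for MARS1 holds for their values.

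On the mitochondrial side, 4 of 6 partners of charging were lower in PELO cells at both times, where 24.9% and 26% of all genes were lower. GATB, a subunit of the amidotransferase that makes glutaminyl transfer RNA in mitochondria, was -0.70 ± 0.06 and -0.50 ± 0.06, and TSFM and TUFM, the mitochondrial elongation factors, were -0.49 ± 0.07 and -0.47 ± 0.07, and -0.26 ± 0.07 and -0.57 ± 0.07. MTFMT, which formylates the initiator methionyl transfer RNA, was -0.33 ± 0.08 and -0.23 ± 0.08. GATC, another subunit of that amidotransferase, was higher (0.18 ± 0.05 and 0.29 ± 0.05), and QRSL1, its catalytic subunit, was higher at 48 h (0.23 ± 0.06) and not called at 96 h. In HBS1L cells GATB (-0.20 ± 0.06) and TSFM (-0.28 ± 0.07) were lower at 48 h and none of the 6 was called at 96 h. Exons of GATC overlap those of SRSF9 on the opposite strand over 47.6% of their length, and those of TSFM another annotated gene on the same strand over 28.5%, so how reads were assigned bears on both.

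Of the 10 amino acid response genes, all were higher in PELO cells beyond the control line at 48 h, and 8 were higher and 1 lower at 96 h, where 22.9% of all genes were higher at 48 h, and 28.7% higher and 26% lower at 96 h. All 10 fell in the control line at 48 h. Within the PELO line at 48 h 5 rose, 3 fell, PSAT1 (-0.35), PHGDH (-0.32) and SLC7A11 (-0.58), and ASNS and CHAC1 were not called. ATF4 was at 249, 251 and 201 CPM without and 826, 773 and 811 CPM with doxycycline at 96 h, with no overlap, and its differences from the control response were 1.89 ± 0.09 at 48 h and 1.94 ± 0.09 at 96 h. SESN2, an inhibitor of mTORC1 signalling, was 2.83 ± 0.10 and 2.40 ± 0.10, and SLC3A2, the heavy chain of amino acid transporters, 1.76 ± 0.07 and 1.85 ± 0.07. PHGDH, the first enzyme of serine synthesis, was the one lower at 96 h (-0.38 ± 0.06). In HBS1L cells all 10 fell within the line at 48 h, 7 of them less than in the control line, and all 10 were higher beyond the control line at 96 h, where 1.41% and 5.41% of all genes were higher. ASNS, the asparagine synthetase of metabolism, which shares 44.6% of its exonic length with another annotated gene on the same strand, was at 1.07 ± 0.08 and PHGDH at 1.04 ± 0.06 at 96 h. The summed level of the 10 genes was 1087 CPM in untreated and 2505 CPM in treated PELO cells at 96 h, and 867 and 1326 CPM in the HBS1L line. At 48 h the untreated and treated sums were 1790 and 2251 CPM in the PELO line and 1867 and 865 CPM in the HBS1L line. The control line had 2254 and 820 CPM at 48 h. The part of these genes in the synthetase values was not tested.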

How the data were processed

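PolyA RNA was sequenced from 36 libraries in 12 groups of 3. The deposited count table holds expected counts, not scaled, for 61544 genes; 45.6% of values above 0 are not whole. The deposited log2 table gives log2 CPM for 17138 genes, each value equal to log2(count + 0.5) plus 1 constant per library. Tools named in the submitters' processing notes are DRAGEN, Subread, featureCounts, edgeR and limma with genome build GRCh38.p13; no source used here gives their options or says whether reads were counted by strand.

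Counts were rounded and filtered with edgeR's filterByExpr (minimum count 10), which kept 20767 genes and at least 99.95% of the counts of each library. Library totals of 45356024 to 107436235 counts set the counting precision. Library sizes were scaled by TMM, and 1 model with 12 group means was fitted to all 36 libraries with edgeR 4.0.16 in R 4.3.3 (robust quasi-likelihood test, Benjamini-Hochberg over all genes, threshold 0.05). The script was tested on simulated data. Standard errors are the size of the log2 change divided by the square root of F. Gene coordinates and exonic lengths are from GENCODE 29, and promoter windows from RefSeq. No 2 libraries held identical values.

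The genes and lists were chosen with earlier results of these data known. Values in every library are given for the called genes with the largest change in each direction beyond the control line, per line and time. These are up to 4 cytosolic and 3 mitochondrial genes. Genes called in opposite directions in the PELO and HBS1L lines or at the 2 times are given likewise. Exceptions are MARS1 in PELO cells at 48 h, given there as mean ± SD, and EARS2 in HBS1L cells, given at 96 h alone. From each other list, up to 3 genes with the smallest adjusted p per direction are given. A few beyond this rule (such as MTFMT, QRSL1 and DDIT3) were named after their values were seen. Alternatives were DESeq2 size factors, the DESeq2 1.42.0 Wald test, the log2 table with limma 3.58.1, no low-count filter, the replicate number as a block, and leaving out each library; comparing treated libraries alone was added after the data were seen.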

Additional observations from a re-analysis of the deposited data

Results flagged for a closer look

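Results are listed here where 2 responses of 1 gene were called in opposite directions and the test of their difference passed as well; groups of 3 libraries are too small to single out a library. Values are differences in log2 units. At 48 h the PELO response exceeded the control response for GARS1 by 1.42, for SARS1 by 1.26 and for TARS1 by 0.90, and it lay below it for EARS2 (-0.52) and TARS2 (-0.53). At the same time the PELO response exceeded the HBS1L response for GARS1 by 1.12, for SARS1 by 0.94, for TARS1 by 0.73 and for FARSA by 0.47.

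At 96 h WARS1 rose in both targeted lines and fell in the control line, with differences of 0.48 for PELO and 0.46 for HBS1L cells. The call of the fall in the control line was lost without treated control replicate 1. TARS3 rose in PELO cells and fell in HBS1L cells, with a difference of 0.60. Its group means lay furthest apart between untreated cells at 96 h. Untreated PELO cells had the lowest mean of the 12 groups (7.02 CPM) and untreated HBS1L cells the highest (9.13 CPM). Treated PELO cells at 96 h were second highest.

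Between the 2 times, the response in the PELO line turned from a fall to a rise for CARS1 (0.26) and IARS1 (0.36). For IARS1 the treated and untreated PELO libraries overlapped at 48 h. In the HBS1L line the response at 96 h exceeded that at 48 h for GARS1 by 1.22, CARS1 by 1.19, SARS1 by 1.09, WARS1 by 0.98, MARS1 by 0.92, YARS1 by 0.82, AARS1 by 0.77 and TARS1 by 0.56, all of which fell at 48 h and rose at 96 h. LARS2 turned the other way in that line (-0.48). Time and the separate blocks in which the libraries were numbered cannot be told apart.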

How the results depend on the processing

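Of 684 single-gene results, 678 kept their direction and side of the threshold with DESeq2 size factors, 667 with the DESeq2 Wald test, 663 with the log2 table and limma, and 641 without a low-count filter. In the fits that left out 1 library, 5740 of 6048 values did so. None of these settings turned the direction of a called gene. Counts that moved by more than 1.5 times were few: 3 cytosolic genes instead of 1 in the control line at 96 h with the DESeq2 Wald test, and, without the filter, 3 mitochondrial genes instead of 5 in the HBS1L line at 48 h and 1 instead of 3 for that line beyond the control line. Leaving out 1 library gave ranges of 0 to 3 cytosolic and 0 to 2 mitochondrial genes for the control line at 96 h, 2 to 4 mitochondrial genes for the HBS1L line at 48 h, 0 to 3 for that line beyond the control line at 48 h and 1 to 3 at 96 h. For untreated cells against control cells, the mitochondrial counts ranged from 3 to 5 (PELO, 48 h), 1 to 3 (PELO, 96 h) and 5 to 8 (HBS1L, 48 h). The cause was not tested.

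Comparing treated libraries alone, without the untreated cells of each line, gave 2 cytosolic genes in place of 6 for HBS1L cells at 48 h, and 10 cytosolic in place of 5 and 6 mitochondrial in place of 3 at 96 h. The 10 did not share a direction. Of the 7 cytosolic genes with a TGATGNAA match 4 were higher, and of the 9 without a match 2 were higher and 3 lower. Of the 4 without a window 1 was higher. The 6 mitochondrial genes were lower. Of all genes, 14.9% were higher and 14.8% lower. It reversed the sign for HBS1L cells at 48 h of CARS2 (0.21), EPRS1 (-0.22), GARS1 (-0.017), HARS2 (0.010), IARS1 (-0.024), SARS1 (-0.001) and WARS1 (-0.34), and for PELO cells at 96 h of HARS1 (-0.14). This comparison does not subtract the untreated cells of each line, so a standing difference between the lines stays in its values.

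Replicate numbers did not pair the libraries: libraries of the same number had a median correlation of deviations of -0.006 at 48 h and -0.013 at 96 h, 3 of 45 pairs at each time were over 0.1, and 5 of 18 and 7 of 18 libraries correlated best with their own number. With the replicate number as a block, 679 of 684 single-gene results were kept, 15 cytosolic and 10 mitochondrial genes were called in PELO cells beyond the control line at 48 h and 15 and 12 at 96 h, and the HBS1L counts were 6 and 2 at 48 h and 5 and 2 at 96 h. Depth limits the least abundant genes most; SARS2, with 201 counts in its lowest library, was the least counted.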
